A study of Mus musculus with 24 samples.

Results

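6 arrays of 24 were compared here: 3 of newborn hindleg skeletal muscle from pups whose dams ate a low protein diet and drank taurine (LPtau), against 3 from pups whose dams ate the low protein diet alone (LP). They were chosen by tissue and maternal diet as the labels give them. The series covers liver and hindleg muscle of C57BL/6 mouse pups killed at birth (day 0), with 3 arrays for each tissue and maternal diet. The diets ran from day 1 of pregnancy until birth. LPtau dams had 8% casein and 1% taurine in the drinking water, and LP dams had 8% casein with no taurine named. The other muscle groups were NPtau (20% casein with 1% taurine in the water) and NP (20% casein), with 3 arrays each. All pups share the C57BL/6 label, and no transgene, deletion or surgery is named. The labels call the arrays of a group biological replicates and do not say whether the pups had different dams, so a p here weighs a difference only against the scatter of these samples, which may be technical or come from shared litters.

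Taurine is a sulfur-containing amino acid made from cysteine by cysteine dioxygenase (Cdo1) and cysteine sulfinate decarboxylase (Csad). It enters cells through the transporter Slc6a6 and is abundant in adult skeletal muscle. Around birth rodent limb muscle replaces embryonic and neonatal myosins with adult fast and slow forms, and its mitochondria and calcium-handling proteins increase. The hedgehog pathway, read out by its targets Gli1 and Ptch1, acts in the connective tissue and muscle progenitors of the limb.

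The question was which muscle genes differ when taurine is added to a low protein diet. Each gene is represented by 1 probe set, and values are log2 expression, so that a difference of 1 is a factor of 2. The labelled tissue was borne out by 7 muscle genes. Acta1, Ckm, Myh3, Myh8, Tnnt3, Des and Myog, which encode contractile proteins, creatine kinase, desmin and a myogenic factor, lay at or above the 93.8th percentile on each of the 12 arrays. LPtau replicate 1 and LP replicate 1 stood apart. The median probe set, over all probe sets of the array, lay 0.291 from its mean on the other muscle arrays on LPtau replicate 1, against 0.0929 to 0.166 on those arrays. LP replicate 1 had the lowest mean correlation with the arrays of its own group, 0.957. It also held the highest level of skin epithelium markers. The mean of these 14 markers, relative to NP, was -1.59, -1.94 and 2.05 on the LPtau arrays, against 4.64, -0.44 and -0.20 on the LP arrays. By the Y-linked and X-inactivation transcripts, the LPtau pups were 1 female and 2 males, the LP pups 2 females and 1 male.

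Across 18193 genes, 4 (0.022%) passed a Benjamini-Hochberg adjusted p under 0.05 in limma, which was fitted to the 12 muscle arrays. Parvalbumin (Pvalb), the fast fibre myosin-binding protein C (Mybpc2) and the muscle form of a cytochrome c oxidase subunit (Cox7a1) rose in LPtau muscle (3 of 18193, 0.0165%), and the ubiquitin ligase Mylip fell (1, 0.0055%). Further genes leaned in either direction without passing. At an unadjusted p under 0.05, which chance alone gives for 5% of genes over both directions, there were 2345 genes (12.9%), 1100 higher (6.05%) and 1245 lower (6.84%). The adjusted p was under 0.1 for 42 genes, 32 higher and 10 lower. Differences were small for most genes, with a median of 0.02 and a median size of 0.18. A size over 1 was seen for 284 genes, 123 higher and 161 lower. Over genes whose mean level lay above that of the median gene, the median difference was -0.11. Without LPtau replicate 1 and LP replicate 1, 36 genes were called, 21 higher and 15 lower, and these include all 4. That fit was chosen after the data were seen. With a further quantile or cyclic loess normalization the calls were 51 higher and 5 lower, or 59 higher and 8 lower, in place of 3 and 1. The count of calls was 0 without LP replicate 3 and 75 without LP replicate 2, so its size rests on single arrays.

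**Figure D1:**
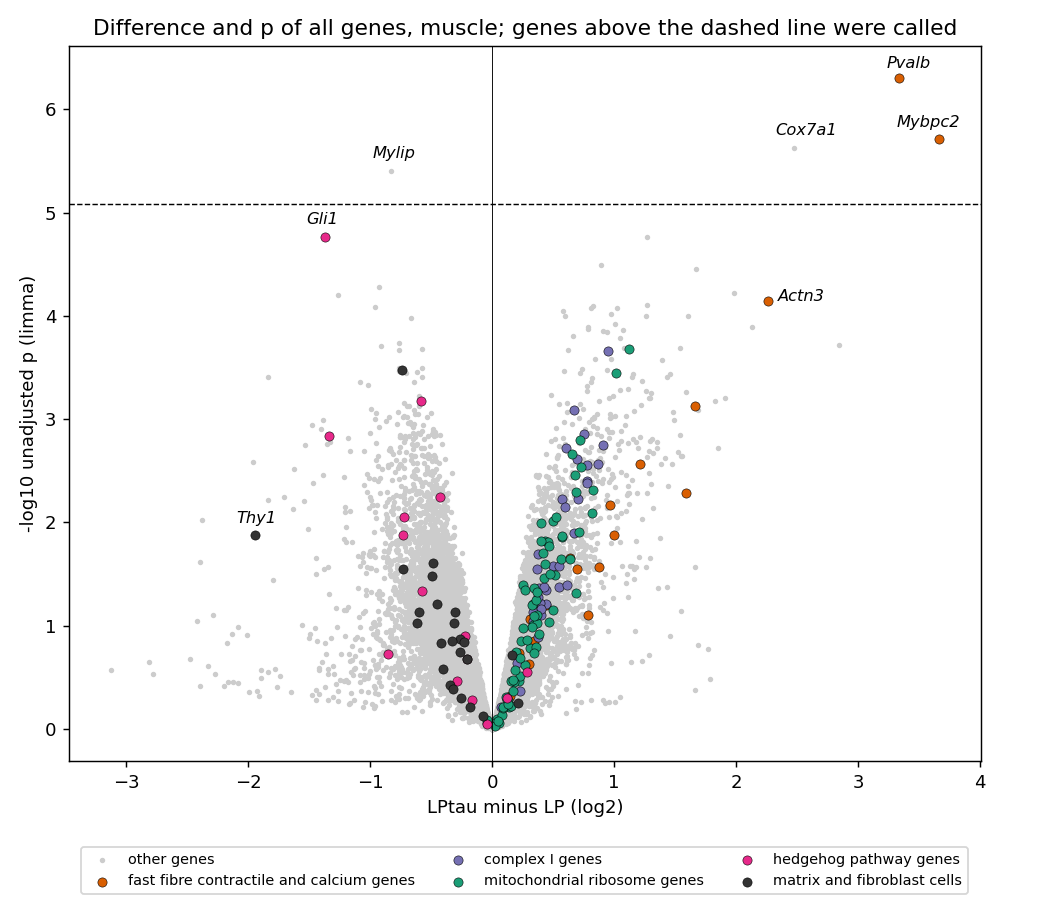
Difference LPtau minus LP (log2, x axis) against the negative log10 of the unadjusted limma p (y axis) for 18193 genes, 1 point per gene, with members of 5 gene lists in colour. The 4 called genes lie above the dashed line. The fast fibre, complex I and mitochondrial ribosome genes lie mostly right of 0, and the hedgehog and matrix genes mostly left.

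Pvalb encodes the calcium-binding protein that speeds the relaxation of fast fibres. It measured 8.49, 8.34 and 9.01 on the LPtau arrays, against 4.91, 6.01 and 4.93 on the LP arrays. The groups did not overlap, and the lowest LPtau value lay above the highest LP value by more than 2 units. Pvalb rose by 3.33 (SE 0.32, limma adjusted p = 0.00913). Its LP values of 4.91 and 4.93 lay near the median probe set of each array and the values carry no detection call, so no fold is given. In NPtau and NP muscle it measured 9.34, 8.57 and 8.58, against 9.64, 9.48 and 9.17, so LP muscle was the group that stood below the others. Mybpc2 measured 9.26, 9.55 and 10.97 in LPtau muscle, against 6.23, 6.78 and 5.79 in LP muscle. It rose by 3.66 (SE 0.40, limma adjusted p = 0.0143), 12.7-fold. Replicate 3 was the highest LPtau array and the lowest LP array.

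Cox7a1 is the heart and skeletal muscle isoform of subunit 7a of complex IV, the last enzyme of the respiratory chain. It measured 9.93, 9.44 and 9.85 in LPtau muscle, against 7.23, 7.77 and 6.80 in LP muscle. The groups were far apart, and Cox7a1 rose by 2.47 (SE 0.28, limma adjusted p = 0.0143), 5.56-fold. Its NP values of 9.26, 9.48 and 9.88 covered nearly the same range as the LPtau values. Mylip, also known as Idol, directs the degradation of the LDL receptor. It measured 8.50, 8.59 and 8.55 in LPtau muscle, against 9.35, 9.42 and 9.34 in LP muscle. Both groups were tight, with an SD of 0.05 in each. Mylip fell by 0.83 (SE 0.098, limma adjusted p = 0.0179), so its level in LP muscle was 1.77 times that in LPtau muscle. Each of the 4 genes has 1 probe set with a single symbol on the array.

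The 250 bases before the start of the 3 genes that rose are shown because these are the genes that rose. They are RefSeq sequence of GRCm38.p6, 5′ to 3′ on the strand of the gene. The Mybpc2 window is chr7:44524670-44524919 on the minus strand, the Cox7a1 window chr7:30183921-30184170 on the plus strand, and the Pvalb window chr15:78206401-78206650 on the minus strand, before the more upstream of 2 starts in the table.
Mybpc2: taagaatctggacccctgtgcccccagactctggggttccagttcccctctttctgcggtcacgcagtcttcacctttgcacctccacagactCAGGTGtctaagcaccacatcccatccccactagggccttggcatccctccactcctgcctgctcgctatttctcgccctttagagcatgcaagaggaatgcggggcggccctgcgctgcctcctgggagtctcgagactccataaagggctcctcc
Cox7a1: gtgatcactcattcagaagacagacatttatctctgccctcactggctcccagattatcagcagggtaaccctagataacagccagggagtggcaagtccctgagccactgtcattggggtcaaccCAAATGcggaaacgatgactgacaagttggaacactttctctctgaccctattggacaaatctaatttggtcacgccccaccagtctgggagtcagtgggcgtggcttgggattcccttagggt
Pvalb: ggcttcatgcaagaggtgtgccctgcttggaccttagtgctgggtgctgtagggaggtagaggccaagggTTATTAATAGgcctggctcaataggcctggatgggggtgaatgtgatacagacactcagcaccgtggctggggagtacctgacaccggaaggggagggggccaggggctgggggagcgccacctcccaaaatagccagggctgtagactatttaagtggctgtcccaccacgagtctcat
Capitals mark an E-box (CANNTG, the letters that myogenic helix-loop-helix factors bind) in Mybpc2 and Cox7a1 and a match to the MEF2 motif in Pvalb. Both strands were searched for these and for the SRF motif. The E-box letters ended 151 bases before the start of Mybpc2 and 118 bases before that of Cox7a1, and the MEF2 match 170 bases before that of Pvalb. Each window held 1 match, so no matches overlapped. Of 32851 RefSeq promoters of the same length, 66.22% held an E-box, 2.92% a MEF2 match and 1.47% an SRF match. The Mylip window on chromosome 13 held none of these letters.

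Genes just outside the threshold included several of known function. Shisa4, a membrane protein, measured 9.20, 9.15 and 9.39 in LPtau muscle, against 7.32, 8.17 and 7.24 in LP muscle (difference 1.67, limma adjusted p = 0.0799). Mtln, which encodes a mitochondrial micropeptide, differed by 1.27, Gpd2, the mitochondrial glycerol phosphate dehydrogenase, by 1.03, Azin1, the antizyme inhibitor of polyamine control, by 0.83, and Hcfc1r1 by 0.81. Each of these 4 had no overlap between the groups and a limma adjusted p of 0.0835. On the lower side, Adgrb2, an adhesion receptor, measured 3.80, 4.04 and 4.09 in LPtau muscle, against 4.79, 5.05 and 4.85 in LP muscle (difference -0.92, limma adjusted p = 0.0835). Lgr5, a receptor for R-spondins, differed by -1.26, but only 1 of its 2 probe sets was negative. Cpsf6, a factor of mRNA 3′ end processing, differed by -0.57 with all 6 probe sets negative, and Trrap, a scaffold of histone acetyltransferase complexes, by -0.77 (limma adjusted p = 0.115 for both). The muscleblind gene Mbnl3 differed by -0.38 and Asb11, a muscle ubiquitin ligase adaptor, by 1.54, both with no overlap.

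**Figure D2:**
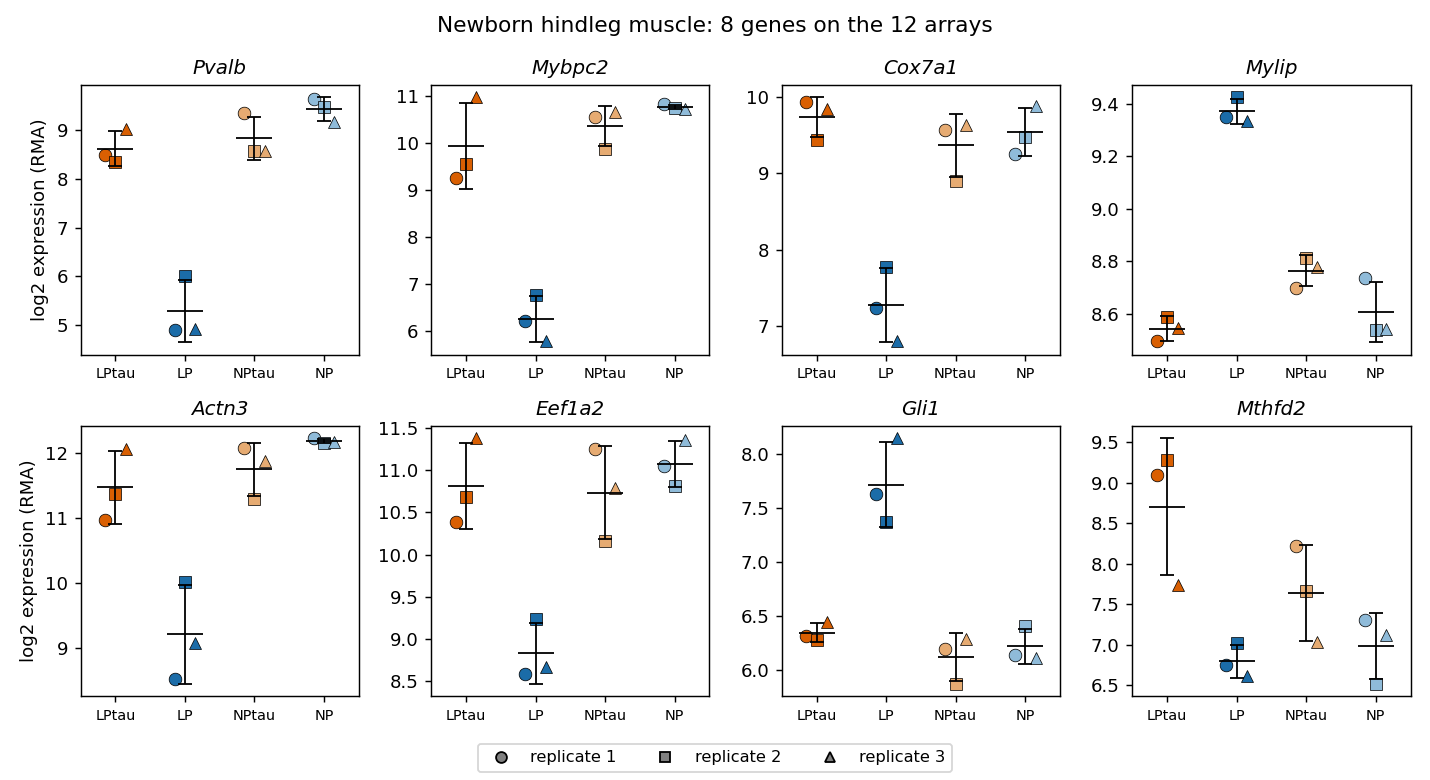
Log2 expression (RMA, y axis) of 8 genes on the 12 muscle arrays by maternal diet (x axis). Marker shapes stand for replicate numbers and bars for the mean and SD of 3 arrays. LP muscle lies apart from the other 3 diets for Pvalb, Mybpc2, Cox7a1, Mylip, Actn3, Eef1a2 and Gli1, and LPtau muscle has the highest mean for Mthfd2.

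Genes of fast fibres leaned higher in LPtau muscle, and 2 passed the test. All 18 measured members of the fast fibre list had a positive difference, against 53% of all genes, with a median of 0.83 against 0.02. Pvalb and Mybpc2 were called and the other 16 were not. At an unadjusted p under 0.05, 11 were higher and 0 lower, beside 6.05% and 6.84% of all genes. The median was 0.54 without LP replicate 1 and 0.80 without LPtau replicate 1 and LP replicate 1. In 8 of the 18 the 3 LPtau values lay all above the LP values, which held for 9.03% of all genes. Actn3, the alpha-actinin of fast Z discs, measured 10.96, 11.37 and 12.06 in LPtau muscle, against 8.52, 10.01 and 9.07 in LP muscle. The groups did not overlap, and the difference of 2.26 (SE 0.37) had a limma adjusted p of 0.0835. Among the adult fast myosin heavy chains, Myh1 measured 10.82, 9.76 and 10.44 against 8.71, 8.84 and 8.47 (difference 1.67), with all 3 of its probe sets positive. Myh2 measured 7.62, 7.91 and 8.18 in LPtau muscle, against 6.19, 7.11 and 5.64 in LP muscle (difference 1.59). Myh4 overlapped between the groups (difference 0.79). These are tissue levels, in which fewer cells of a type and less RNA per cell cannot be told apart.

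The other contractile lists leaned the same way by less. Of 13 slow fibre genes 8 had a positive difference (median 0.25) and 0 were called. The largest of these was Myl2, the regulatory light chain of slow muscle and heart (1.36), and Myh7, the slow myosin, differed by 1.11 with no overlap between groups. Tpm3, the slow tropomyosin, had a difference of -0.58, which was 0.0060 with the mean of its probe sets. The slow fibre median was 0.0070 without LP replicate 1 and 0.05 without LPtau replicate 1 and LP replicate 1. All 17 sarcomere and Z disc genes and all 15 excitation-contraction coupling genes had a positive difference, with medians of 0.47 and 0.54 and 0 called. Without LP replicate 1, the array with high skin markers, these medians were 0.20 and 0.15. The coupling list mean relative to NP was -0.37, 0.06 and 0.04 on the LPtau arrays, against -1.27, -0.21 and -0.39 on the LP arrays, which overlap. The sarcomere list mean also overlapped, at -0.31, 0.03 and 0.01 on the LPtau arrays, against -1.06, -0.22 and -0.45 on the LP arrays. Cryab, a small heat shock protein of the Z disc, differed by 0.98 and the M-band protein Myom2 by 0.77. In the coupling list Kcna5, a potassium channel, differed by 1.26 and triadin (Trdn), which anchors the calcium release channel, by 1.05, both with no overlap. The embryonic and neonatal myosins Myh3 and Myh8 had differences of -0.02 and 0.14, whose sign turned when single arrays were left out. Eef1a2, the elongation factor isoform that replaces Eef1a1 in maturing muscle, measured 10.39, 10.68 and 11.38 in LPtau muscle, against 8.58, 9.24 and 8.67 in LP muscle. Its difference was 1.99 (limma adjusted p = 0.0835), while that of Eef1a1 was -0.22. The myogenic regulators gave a median of 0.11, which was -0.06 without LP replicate 1, and 0 of 15 were called. Myf6 was at 0.56, myogenin (Myog) at -0.26 and Myf5 at 0.91, but Myf5 was at 0.06 without LPtau replicate 1 and LP replicate 1.

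Mitochondrial genes leaned higher in LPtau muscle across 4 lists, in which only Cox7a1 passed the test. All 34 measured genes of the complex I list, which was made of Nduf symbols, had a positive difference (median 0.52, range 0.07 to 0.95), and 0 were called. At an unadjusted p under 0.05 there were 23 higher, a share of 67.6%, against 6.05% of all genes. In 23 the LPtau values lay all above the LP values, against 9.03% of all genes. Ndufb10, an accessory subunit, measured 11.58, 11.63 and 11.61 in LPtau muscle, against 10.45, 10.95 and 10.55 in LP muscle. Its difference of 0.95 had a limma adjusted p of 0.0957, and its LPtau values sat within 0.05 of each other. Relative to NP, the mean of the complex I list was -0.00, 0.01 and 0.10 on the LPtau arrays, against -0.76, -0.26 and -0.47 on the LP arrays. It was therefore near the NP level on each LPtau array and below it on each LP array. On the NPtau arrays it was 0.01, -0.47 and -0.00, so that NPtau replicate 2 lay within the range of the LP arrays. Without LPtau replicate 1 and LP replicate 1 the median was 0.41.

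The other mitochondrial lists also leaned higher. Of 74 genes listed under mitochondrial ribosome symbols (Mrpl and Mrps) 72 were positive (median 0.34, 0 called), with Mrps36 at 1.12 and Mrpl42 at 1.02. The role of each listed gene in the ribosome was not checked. Of the 74, 31 (41.9%) were higher at an unadjusted p under 0.05, against 6.05% of all genes. Without LP replicate 1 the median was 0.21. Of 41 genes of the TCA cycle, complexes II and III and ATP synthase 39 were positive (median 0.42, 0 called). There were 20 (48.8%) higher at an unadjusted p under 0.05, against 6.05% of all genes. The TCA list mean relative to NP was -0.29, 0.04 and 0.10 on the LPtau arrays, against -0.71, -0.24 and -0.51 on the LP arrays. These ranges overlap, unlike those of complex I. The TCA list median was 0.31 without LPtau replicate 3. Cytochrome c (Cycs), the electron carrier between complexes III and IV, measured 12.97, 12.97 and 13.02 against 11.60, 12.20 and 11.86. Of 21 complex IV genes 18 were positive and 3 negative, with a median of 0.44, a lowest difference of -0.73 and Cox7a1 called. Of the 21, 11 were higher and 1 lower at an unadjusted p under 0.05, beside 6.05% and 6.84% of all genes. The muscle isoforms Cox6a2 (0.99) and Cox8b (1.27) were positive with no overlap, as was Cox17, which carries copper to the complex (0.66). Without LPtau replicate 1 and LP replicate 1, Cox6a2 was at 0.68, Cox8b at 0.64 and Cox17 at 0.51. Over the 170 genes of these 4 lists, 163 were positive and 1 was called. Mtfp1, a mitochondrial fission protein, measured 6.71, 6.61 and 6.61 against 5.01, 5.75 and 5.37, a difference of 1.27 with a limma adjusted p of 0.0522. Ppargc1a, the coactivator of mitochondrial gene expression, measured 9.66, 8.40 and 8.74 in LPtau muscle, against 7.04, 7.73 and 7.38 in LP muscle. Its groups did not overlap, but its SE of 0.78 was large beside the difference of 1.55 (limma adjusted p = 0.425).

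**Figure D3:**
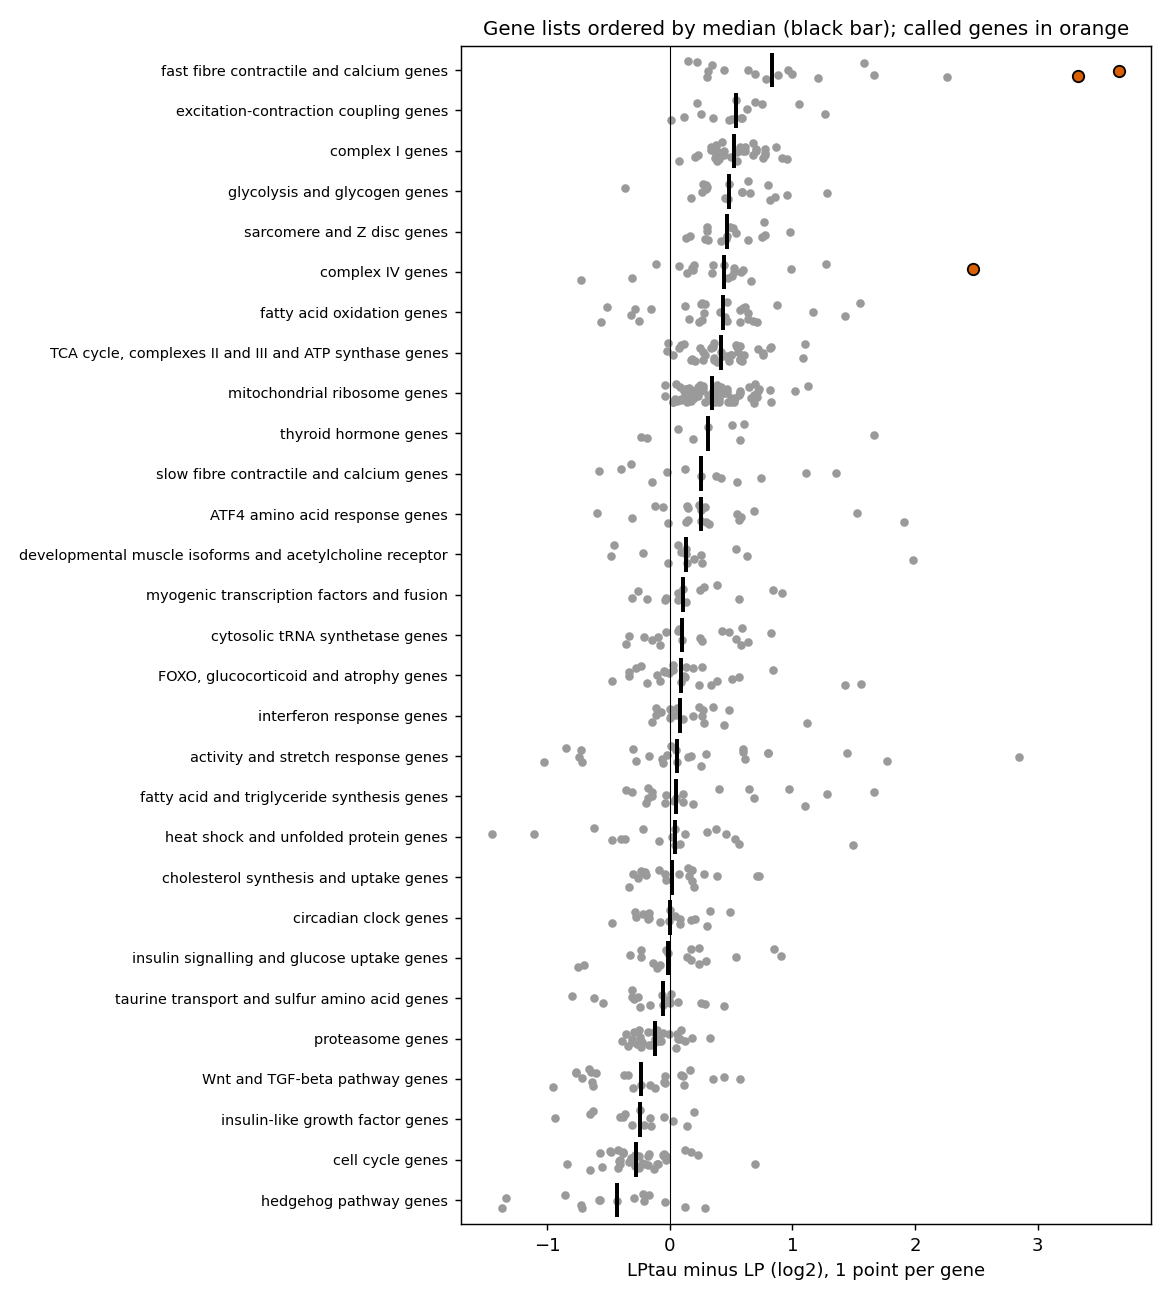
Difference LPtau minus LP (log2, x axis) of each measured gene in the muscle, metabolism and signalling lists (y axis), 1 point per gene, with black bars for list medians and orange points for called genes. The fast fibre list lies highest (median 0.83), and the hedgehog list lowest (median -0.43).

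Fuel-handling genes leaned higher as well. Of 19 glycolysis and glycogen genes 18 were positive (median 0.48, 0 called). An unadjusted p under 0.05 was reached by 8 on the higher side (42.1%), against 6.05% of all genes. The median was 0.30 without LP replicate 1. They included glycogen synthase Gys1 (0.86), the phosphorylase kinase subunit Phkg1 (1.28), hexokinase Hk2 (0.80) and phosphoglycerate mutase Pgam2 (0.95). The glycolysis list mean relative to NP was -0.58, 0.06 and 0.08 on the LPtau arrays, against -0.94, -0.43 and -0.63 on the LP arrays. These ranges overlap. Of 30 fatty acid oxidation genes 24 were positive (median 0.43, 0 called), with Acaa2 at 0.60 and Oxct1, which uses ketone bodies, at 0.88. Among the 30, 8 (26.7%) were higher at an unadjusted p under 0.05, against 6.05% of all genes. The median of this list was 0.24 without LPtau replicate 3. The insulin-responsive glucose transporter Slc2a4 measured 9.62, 9.54 and 9.61 in LPtau muscle, against 8.49, 8.92 and 8.62 in LP muscle. The LPtau values were nearly identical, and the difference was 0.91 (limma adjusted p = 0.0878). The 19 insulin signalling genes, Slc2a4 among them, had a median of -0.02. In 5 the LPtau values lay all above the LP values and in 1 all below, beside 9.03% and 7.09% of all genes. Pdk4, which restrains glucose oxidation, was at 8.76, 8.20 and 10.23 against 7.83, 7.90 and 7.16, a difference of 1.43 with an SE of 0.62.

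Hedgehog pathway genes leaned lower in LPtau muscle, and none passed the test. Of 15 measured members 13 had a negative difference (median -0.43) and 0 were called. There were 7 (46.7%) lower at an unadjusted p under 0.05, against 6.84% of all genes. In 6 the 3 LPtau values lay all below the LP values, which held for 7.09% of all genes. Gli1, the target and effector of the pathway, measured 6.31, 6.27 and 6.44 in LPtau muscle, against 7.63, 7.37 and 8.14 in LP muscle. Its difference of -1.37 (SE 0.19) had a limma adjusted p of 0.0522. The NPtau and NP values of Gli1, at 5.87 to 6.29 and 6.11 to 6.41, lay beside the LPtau values. Ptch1, the receptor and a further target, measured 8.79, 8.35 and 8.95 against 10.74, 9.17 and 10.18 (difference -1.33, limma adjusted p = 0.153), with 2 of its 3 probe sets negative. Smo, the signal transducer, differed by -0.43 and Sufu, the inhibitor of Gli factors, by -0.58, though only 1 of 3 Sufu probe sets was negative. Relative to NP, the list mean was 0.07, -0.03 and 0.05 on the LPtau arrays, against 0.78, 0.29 and 0.44 on the LP arrays.

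Secreted signalling and matrix genes leaned lower too. Of 25 Wnt and TGF-beta genes 18 were negative (median -0.23, 0 called). Among the 25, 7 (28%) were lower at an unadjusted p under 0.05, against 6.84% of all genes. For all genes above the median level the median difference was -0.11, against 0.02 over all genes. The Wnt antagonist Sfrp2 measured 8.29, 8.84 and 8.69 in LPtau muscle, against 9.65, 9.54 and 9.49 in LP muscle, a difference of -0.96 (limma adjusted p = 0.0835). The list median was -0.42 without LP replicate 3. Follistatin (Fst) differed by -0.64 and Tgfbr2 by -0.72 (-0.53 and -0.23 without LPtau replicate 1 and LP replicate 1). Of 15 insulin-like growth factor genes 12 were negative (median -0.24, 0 called). An unadjusted p under 0.05 was reached by 4 on the lower side (26.7%), against 6.84% of all genes. The lowest was the binding protein Igfbp4 (-0.94, all 6 probe sets negative), while the growth factors Igf1 and Igf2 had differences of -0.16 and 0.03. Of 24 matrix and fibroblast markers 22 were negative (median -0.32, 0 called), including Pdgfra (-0.49) and Col6a1 (-0.73). Fbln2, a matrix glycoprotein, differed by -0.74, but only 1 of its 2 probe sets was negative. The mean of these markers relative to NP was -0.73, -0.18 and -0.08 on the LPtau arrays, against 0.41, -0.11 and -0.09 on the LP arrays. Their shift came mainly from replicate 1 of each group, and without both arrays the median was -0.05, with Pdgfra at -0.18 and Col6a1 at -0.25. The hedgehog median was then -0.33 and the Wnt and TGF-beta median -0.10. The part of connective tissue content in these differences was not tested.

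Of 41 cell cycle genes 37 were negative (median -0.27) and 0 were called. Their list mean relative to NP was -0.67, -0.10 and -0.12 on the LPtau arrays, against 0.01, -0.16 and -0.04 on the LP arrays, so that LPtau replicate 1 alone stood low. Without LPtau replicate 1 and LP replicate 1 the median was 0.02. The proteasome list gave a median of -0.12 over 32 genes, which was 0.05 without LPtau replicate 1, with 0 at an unadjusted p under 0.05. For all genes above the median level the median difference was -0.11.

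No gene of taurine supply passed the test. Slc6a6, the taurine transporter, measured 9.61, 9.24 and 9.21 in LPtau muscle, against 10.10, 9.75 and 9.83 in LP muscle. The groups did not overlap, and the difference of -0.55 (SE 0.19) had a limma adjusted p of 0.278, with 3 of 4 probe sets negative. In NPtau and NP muscle Slc6a6 was at 8.72, 8.61 and 9.25, against 9.40, 9.16 and 9.48 (difference -0.49, SE 0.19). Csad measured 7.15, 7.59 and 8.21 in LPtau muscle, against 8.42, 8.42 and 8.49 in LP muscle, again with no overlap (difference -0.79, SE 0.33, limma adjusted p = 0.354). Cdo1 overlapped, with 6.89, 7.97 and 8.90 against 8.35, 8.16 and 8.02. Of the 20 measured genes of taurine transport and sulfur amino acid metabolism, 15 were negative and 0 were called (median -0.06). Among the 20, 3 (15%) were lower at an unadjusted p under 0.05, against 6.84% of all genes.

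Targets of ATF4, the transcription factor of the amino acid response, differed in another pattern. Mthfd2, a mitochondrial folate enzyme, measured 9.10, 9.28 and 7.73 in LPtau muscle, against 6.74, 7.02 and 6.62 in LP muscle. Asns, asparagine synthetase, measured 10.98, 11.51 and 10.34 in LPtau muscle, against 8.87, 9.90 and 9.50 in LP muscle. Neither pair of groups overlapped, and the differences were 1.91 and 1.52 (limma adjusted p of 0.14 and 0.162). Here the NP values, 7.30, 6.52 and 7.12 for Mthfd2 and 10.08, 9.48 and 9.49 for Asns, lay with or near the LP values. Of 23 ATF4 targets 18 were positive, against 53% of all genes (median 0.25, 0 called). There were 4 higher and 0 lower at an unadjusted p under 0.05, beside 6.05% and 6.84% of all genes. Fgf21 (0.58) and Aldh18a1 (0.57) were among the 6 with LPtau values all above the LP values, against 9.03% of all genes. The median was 0.12 without LPtau replicate 2. The cytosolic tRNA synthetases gave a median of 0.10 over 19 genes, which was -0.03 without LP replicate 1 and 0.43 without LPtau replicate 1. Of these, 5 (26.3%) were higher at an unadjusted p under 0.05, against 6.05% of all genes. They were led by Lars (0.82), Yars (0.54) and Nars (0.58).

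**Figure D4:**
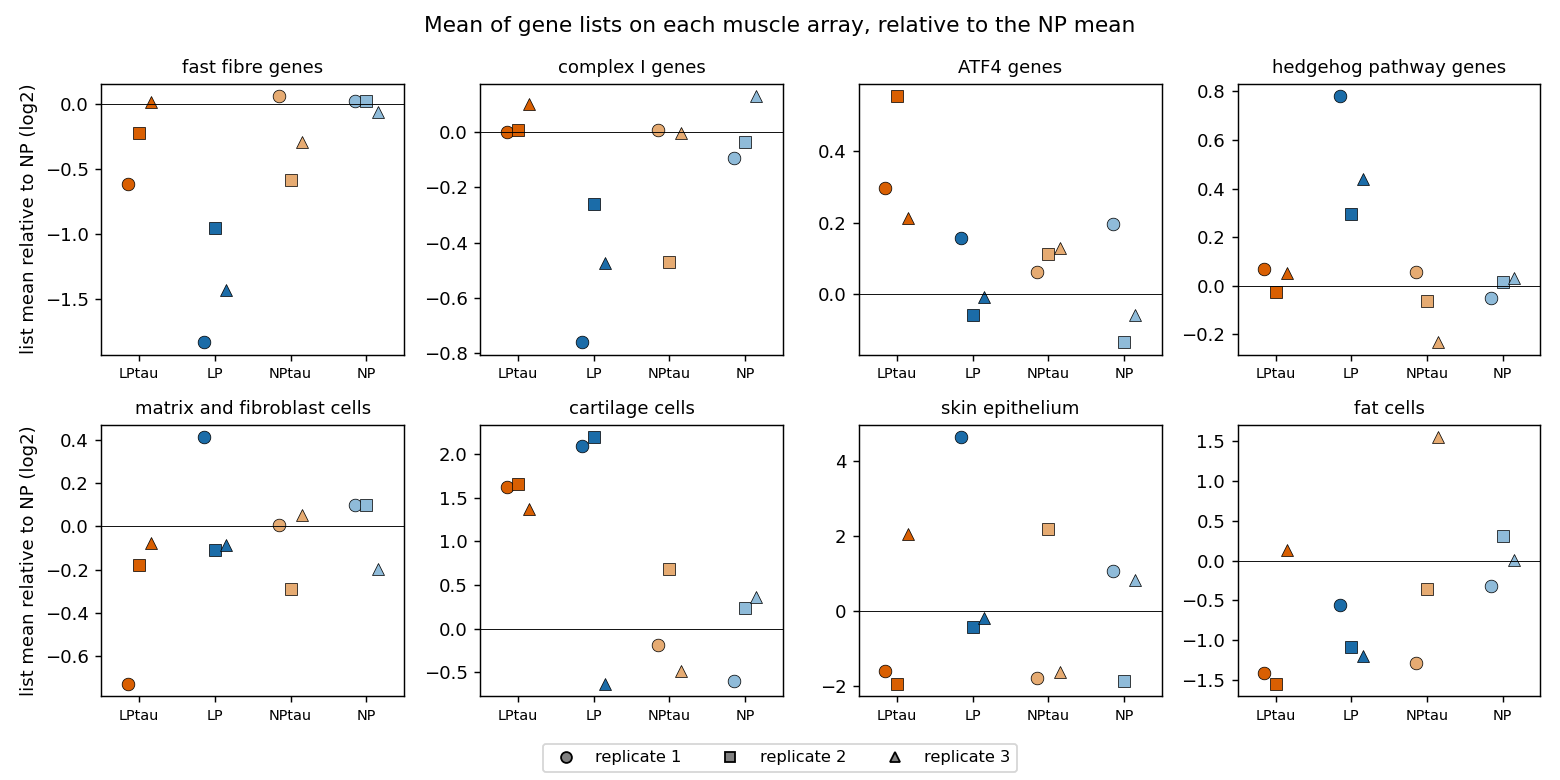
Mean of 8 gene lists on each muscle array relative to the NP mean (log2, y axis) by maternal diet (x axis), with marker shapes for replicate numbers. The LPtau and LP arrays do not overlap for the fast fibre, complex I, ATF4 and hedgehog lists, and they overlap for the cartilage, skin and fat lists. LP replicate 1 stands highest for the skin list and LPtau replicate 1 lowest for the matrix list.

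Markers of skin, cartilage and fat overlapped between the LPtau and LP arrays. None of the 14 skin, 20 cartilage or 12 bone genes reached an unadjusted p under 0.05. Of 17 fat cell genes 1 did, beside 12.9% of all genes. All 14 skin markers had a negative difference (median -1.95), but without LP replicate 1 and LPtau replicate 1 the median was 0.38. The mean of the cartilage list relative to NP was 1.62, 1.66 and 1.37 on the LPtau arrays, against 2.09, 2.19 and -0.63 on the LP arrays. For fat cells it was -1.41, -1.54 and 0.13 on the LPtau arrays, against -0.55, -1.08 and -1.20 on the LP arrays. The lowest array value of any member was 3.42 for skin, 3.65 for cartilage and 3.68 for fat over these 6 arrays, so part of each list was dim. The part of these tissues in the muscle results was not tested.

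The same taurine supplement was also given with normal protein. NPtau minus NP gave 0 called genes in limma, with 88 (0.484%) at an unadjusted p under 0.05. The difference between the 2 taurine effects was tested as an interaction, LPtau minus LP less NPtau minus NP. It called 0 genes, with 1194 (6.56%) at an unadjusted p under 0.05. Pvalb came nearest, with an interaction of 3.93 (SE 0.45, limma adjusted p = 0.0544), made of 3.33 under low protein and -0.60 under normal protein. For Mybpc2 the interaction was 4.06 (SE 0.57, limma adjusted p = 0.119), for Mylip -0.98 (SE 0.14, 0.119) and for Cox7a1 2.65 (SE 0.39, 0.147). So no gene was shown to respond differently to taurine under the 2 protein levels, although the 4 called genes had effects of 0.16 to -0.60 under normal protein.

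LPtau muscle was also set against NP muscle, in a comparison that shares its LPtau arrays with the one above. It called 0 genes, with 682 (3.75%) at an unadjusted p under 0.05. The values for LPtau minus NP were -0.81 (SE 0.32) for Pvalb, -0.83 (SE 0.40) for Mybpc2, 0.20 (SE 0.28) for Cox7a1 and -0.06 (SE 0.10) for Mylip. LP minus NP, which shares the LP arrays, gave -4.14, -4.50, -2.27 and 0.76 for the same genes. Because these comparisons share arrays with LPtau minus LP, their values stand here side by side and not as independent evidence. For Mthfd2 and Asns, LPtau minus NP was 1.72 and 1.26, and LP minus NP was -0.19 and -0.26.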

How the data were processed

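Biotin-labelled cRNA from total RNA was measured on single-channel mouse arrays (45101 probe sets). According to the submitters' processing notes, the authors computed these deposited log2 expression values by RMA using R 2.7.0; MAS5 is named there too, without its role. The series' design text says that each tissue was normalized on its own, so only muscle was used. Its array medians were 4.95 to 5.04. The number of arrays, 3 per group, limits the precision. Of the probe sets, 34945 had 1 gene symbol, and each of 18193 genes was represented by its probe set of highest mean on the 12 muscle arrays. No filter or pseudocount was applied. limma 3.58.1 in R 4.3.3 (lmFit, eBayes) fitted a mean per diet, with a call at a Benjamini-Hochberg adjusted p under 0.05. With 3 arrays a group, the smallest two-sided p of an exact permutation test is 0.1, so calls rest on the spread pooled over genes. The script was tested on simulated data. The members and the 43 gene lists were chosen with earlier results of these data known. Genes were named by rule: called genes, the non-overlapping genes with the smallest p up to 12 in each direction, up to 4 members of each list, and a set of muscle and taurine genes, of which the text gives those it describes. Alternatives changed the arrays, covariates, probe sets, normalization and variance model. The 10092 probe sets with several symbols or none were tested apart.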

Additional observations from a re-analysis of the deposited data

Results flagged for a closer look

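Among the 10092 probe sets with several gene symbols or none, which the comparison of genes leaves out, 1 passed an adjusted p under 0.05 in limma and 1001 had an unadjusted p under 0.05. Probe set 1460047_at, which carries no single symbol here, measured 4.52, 4.50 and 4.38 in LPtau muscle, against 5.95, 5.70 and 5.68 in LP muscle. The groups did not overlap, and the difference was -1.31 (SE 0.15, limma adjusted p = 0.0258). Its LPtau values lay below the median probe set of the arrays and carry no detection call.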

How the results depend on the processing

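The count of 4 genes called in LPtau minus LP depended on the arrays and the model. It was 0 with only the LPtau and LP arrays, 3 with the sex of the pup as a covariate, 13 (9 higher, 4 lower) with the mean of all probe sets of a gene, 8 over genes above the median level, 10 with a trend and robust variance model, 56 after quantile and 67 after cyclic loess normalization. Leaving out each LPtau or LP replicate in turn gave 0 to 75 calls, with 9 without LPtau replicate 1, 2 without LPtau replicate 3, 14 without LP replicate 1, 75 without LP replicate 2 and 0 without LP replicate 3. Chosen after seeing the data, the fit without LPtau replicate 1 and LP replicate 1 gave 36 calls, and array weights gave 281 (160 higher, 121 lower). The interaction, with 0 calls, gave 2 over genes above the median level, 1 after quantile normalization, 1 after cyclic loess, 1 with the trend and robust model, 4 with array weights, and 0 to 5 when single replicates were left out. The cause of these changes was not tested. Whether a shared replicate number marks a pair was not settled. The deviations of LPtau and LP arrays of one number correlated at -0.09, 0.22 and -0.30. With 3 arrays a group these deviations sum to 0 for each gene, so the correlations cannot show or exclude a pairing. The fit with the replicate block called 0 genes in LPtau minus LP and 0 in the interaction.

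Across single replicates left out, Pvalb stayed between 3.13 and 3.70 and was called in 5 of 6 fits, Mybpc2 between 3.14 and 4.0 (5 of 6), Cox7a1 between 2.24 and 2.72 (4 of 6) and Mylip between -0.85 and -0.80 (3 of 6). The fast fibre median stayed between 0.54 and 1.12, complex I between 0.36 and 0.67, mitochondrial ribosome between 0.21 and 0.49 and hedgehog between -0.53 and -0.31. Over all 43 lists, skin ran from -3.06 to -0.14 and the medians of several lists named above turned sign or moved by over 1.5 times without a single array. Some differences turned sign, most of them near 0, and Tpm3 (-0.58) among them. Cdo1 ran from -0.75 to 0.25 when single replicates were left out, and was at 0.34 without LPtau replicate 1 and LP replicate 1, and 0.19 with array weights. Igf1 was at 0.075 without LPtau replicate 1. Igf2 was at -0.016 and -0.018 without LPtau replicate 2 and 3 and at -0.028 without LP replicate 1. Myh3 was at 0.057 after quantile and 0.0095 after cyclic loess normalization, and ran from -0.19 to 0.12 when single replicates were left out. Myh8 ran from -0.037 to 0.39, and Tpm3 was at 0.0060 with the mean of all probe sets.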

Other observations

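Of 26 activity and stretch genes and 27 FOXO, glucocorticoid and atrophy genes, 0 were called. Abra, which links actin to serum response factor in muscle, measured 7.85, 6.90 and 8.86 in LPtau muscle, against 5.55, 5.12 and 4.40 in LP muscle. The groups did not overlap, and the difference was 2.85 (SE 0.52, limma adjusted p = 0.0952). The activity and stretch list gave a median of 0.06, in which Ankrd2 was at 1.44 and the early response genes Jun and Klf6 were at -1.02 and -0.71. Without LPtau replicate 1 and LP replicate 1, Ankrd2 was at 1.25, Jun at -0.40 and Klf6 at -0.35. Trim63, a ubiquitin ligase of muscle atrophy, measured 10.12, 9.06 and 8.43 in LPtau muscle, against 7.43, 8.10 and 7.40 in LP muscle (difference 1.56, limma adjusted p = 0.166). The list of FOXO, glucocorticoid and atrophy genes otherwise centred near 0, with a median of 0.09 over 27 genes.

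Cyp27a1, the sterol 27-hydroxylase, measured 6.81, 6.79 and 6.89 in LPtau muscle, against 5.92, 5.84 and 6.06 in LP muscle, a difference of 0.89 (SE 0.13, limma adjusted p = 0.0799). Adgre1, the F4/80 marker of macrophages, was at 7.90, 7.77 and 7.55 against 7.30, 7.06 and 7.02 (difference 0.61), while Cd68 and Cd163 of the same list were at -0.83 and -0.58 (-0.11 and -0.25 without LPtau replicate 1 and LP replicate 1). The 18 circadian clock genes had a median of -0.00, with 0 at an unadjusted p under 0.05.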
